A study of Rattus norvegicus with 3 samples.

Results

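Gas6, Pros1, Axl, Mertk, Tyro3, Mfge8, Itgb5 and Itgav form a short list of genes for efferocytosis, the uptake of dying cells by phagocytes. They were taken by symbol from the gene table of the series, which holds all 8 among 32883 listed genes, each once. Their raw UMIs (unique molecular identifiers, counts of captured RNA molecules) were read in single cells from skin wounds, in cell classes defined by marker genes. There were 3 libraries, 1 per group. The first came from wounds under a CO-releasing hyaluronic acid hydrogel (called the CO hydrogel), the second from wounds under a hyaluronic acid hydrogel (the hydrogel), and the third from untreated wounds. All 3 groups were male wild-type SD rats made diabetic with streptozotocin at 65 mg/kg, injected at 7 to 9 weeks of age, and kept for the study once blood glucose passed 16.7 mM. Each wound was a full-thickness skin defect 15 mm across, and the tissue was collected at 8 to 10 weeks of age, with the hydrogel groups at 7 days of treatment. Diabetes was shared by every group, so no library shows the healthy state, and the number of rats behind each library is not given in the sources used here.

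A dying cell turns phosphatidylserine outward, and soluble proteins then tie that lipid to receptors on a phagocyte. Gas6 and protein S (Pros1) are vitamin K-dependent ligands of the TAM receptor tyrosine kinases Tyro3, Axl and Mertk. Gas6 binds all of them, and protein S binds Tyro3 and Mertk but not Axl. Mfge8, a secreted milk fat globule protein, instead bridges to integrins that contain the alpha v chain (Itgav), such as the one it forms with the beta 5 chain (Itgb5). In a healing wound this machinery lets macrophages take up spent neutrophils, and Axl and Mertk are also known, mainly from mice, to restrain inflammatory signalling in the phagocyte.

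Promoter sequences were available for all 8 genes in RefSeq, on build GRCr8, which is not the build of the expression files (rn6). Each covers 250 bases before and 50 bases after the annotated start. Gas6 and Axl are printed as a ligand and its receptor that were both more than 2-fold higher in macrophages under the CO hydrogel than in either other library, and Mertk because its macrophage level was nearly equal in all of them. Capitals mark the GC box GGGCGG on either strand, so that its complement reads CCGCCC. The Gas6 promoter lies at chr16:82747426-82747725 on the plus strand, the Axl promoter at chr1:90423960-90424259 on the minus strand and the Mertk promoter at chr3:136392324-136392623 on the plus strand.
Gas6: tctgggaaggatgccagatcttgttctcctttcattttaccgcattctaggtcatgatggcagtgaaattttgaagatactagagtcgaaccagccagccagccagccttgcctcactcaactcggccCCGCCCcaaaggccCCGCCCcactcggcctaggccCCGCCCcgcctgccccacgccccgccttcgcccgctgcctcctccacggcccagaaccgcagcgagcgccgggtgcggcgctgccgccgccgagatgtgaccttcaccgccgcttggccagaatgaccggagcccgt
Axl: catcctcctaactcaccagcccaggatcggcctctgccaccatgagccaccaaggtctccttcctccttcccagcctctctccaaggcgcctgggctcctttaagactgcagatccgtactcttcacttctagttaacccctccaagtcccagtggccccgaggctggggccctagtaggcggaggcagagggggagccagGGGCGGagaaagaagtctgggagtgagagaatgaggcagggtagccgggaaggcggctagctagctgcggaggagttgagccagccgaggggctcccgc
Mertk: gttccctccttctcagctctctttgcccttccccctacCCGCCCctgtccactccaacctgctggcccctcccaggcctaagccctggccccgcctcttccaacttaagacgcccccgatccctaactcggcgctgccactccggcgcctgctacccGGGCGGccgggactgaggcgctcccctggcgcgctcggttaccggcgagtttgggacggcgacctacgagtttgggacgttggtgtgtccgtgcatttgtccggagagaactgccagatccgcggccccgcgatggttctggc
The GC box was present in the promoters of 7 of the 8 genes, all but Itgb5, against 33.1% of 33469 rat promoters of the same length. It occurred 3 times in Gas6, 1 time in Axl and 2 times in Mertk. The TATA box TATAAA was in none of the 8, against 14.2% of all promoters. The AP-1 motif TGANTCA was in 1 of the 8, that of Tyro3, against 7.33% of all promoters. The motifs were searched on both strands, and by their letters none of them can overlap another. A match is a description of the letters, not a site shown to be used. The GC content of the 8 windows lay between 63.0% and 81.3%.

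The deposited tables held 15376 barcodes for the CO hydrogel, 15442 for the hydrogel and 12883 for the untreated library, where the study's design text expected about 8000 cells each. After filtering and removal of likely doublets, 13143, 12700 and 10820 cells remained in the same order of libraries. The median cell held 5832 UMIs under the CO hydrogel, 5620 under the hydrogel and 2639.5 in the untreated library, so the untreated library was the shallowest. Its fibroblast-like cells were the deepest of the 3 libraries, with medians of 9192 UMIs under the CO hydrogel, 13494 under the hydrogel and 16319 in the untreated library. Macrophage or monocyte-like cells had medians of 5142, 7633.5 and 8175 UMIs in the same order, so they were shallowest under the CO hydrogel. Between 364 and 600 barcodes recurred in any pair of libraries. With 1 library per group no test between groups was possible. The intervals given are exact 95% Poisson or binomial intervals. They cover counting error only, not the differences between rats, and UMIs of 1 cell are not independent. The 8 genes took no part in the clustering, which gave 27 clusters. A higher summed level in a class can come from more expressing cells or from more RNA in each, which a sum cannot tell apart.

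Fibroblast-like cells carried all 7 fibroblast markers, which together took 80630 of every 1000000 UMIs in the class (CPM, the scale of all levels here) under the CO hydrogel, 68931 CPM under the hydrogel and 83918 CPM in the untreated library. Macrophage or monocyte-like cells carried all 9 of their markers, at 18222, 7074 and 12718 CPM in those libraries. Other classes were less clean. In mural-like cells the fibroblast markers summed to 18907, 15218 and 8912 CPM, above their own 7 markers at 5931, 6068 and 5418 CPM. In endothelial-like cells the fibroblast markers summed to 5490, 1146 and 1346 CPM, above the 7 endothelial markers (3391, 3682 and 4001 CPM) under the CO hydrogel only. The 7 classes with at least 100 cells in every library are compared here, with 4980, 1727 and 1280 fibroblast-like cells and 2882, 4208 and 1505 macrophage or monocyte-like cells for the CO hydrogel, hydrogel and untreated libraries. Neutrophil-like cells, the main prey of efferocytosis in a wound, numbered 460 under the CO hydrogel, 2818 under the hydrogel and 5734 in the untreated library.

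The ligands were mostly genes of stroma and the TAM receptors were divided between stroma and macrophages. Fibroblast-like cells held 78.3% of all Gas6 UMIs under the CO hydrogel, 73.5% under the hydrogel and 64.6% in the untreated library. Macrophage or monocyte-like cells held most of the rest, with 15.8%, 21.0% and 25.7% in those libraries. Axl was also mainly fibroblast RNA, at 77.6%, 62.6% and 70.8% of its UMIs. Mertk was the macrophage receptor: that class held 69.7% of its UMIs under the CO hydrogel, 88.0% under the hydrogel and 84.7% in the untreated library. These shares move with the number of cells of each class as well as with the level in each cell, and these cannot be told apart in them.

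**Figure D1:**
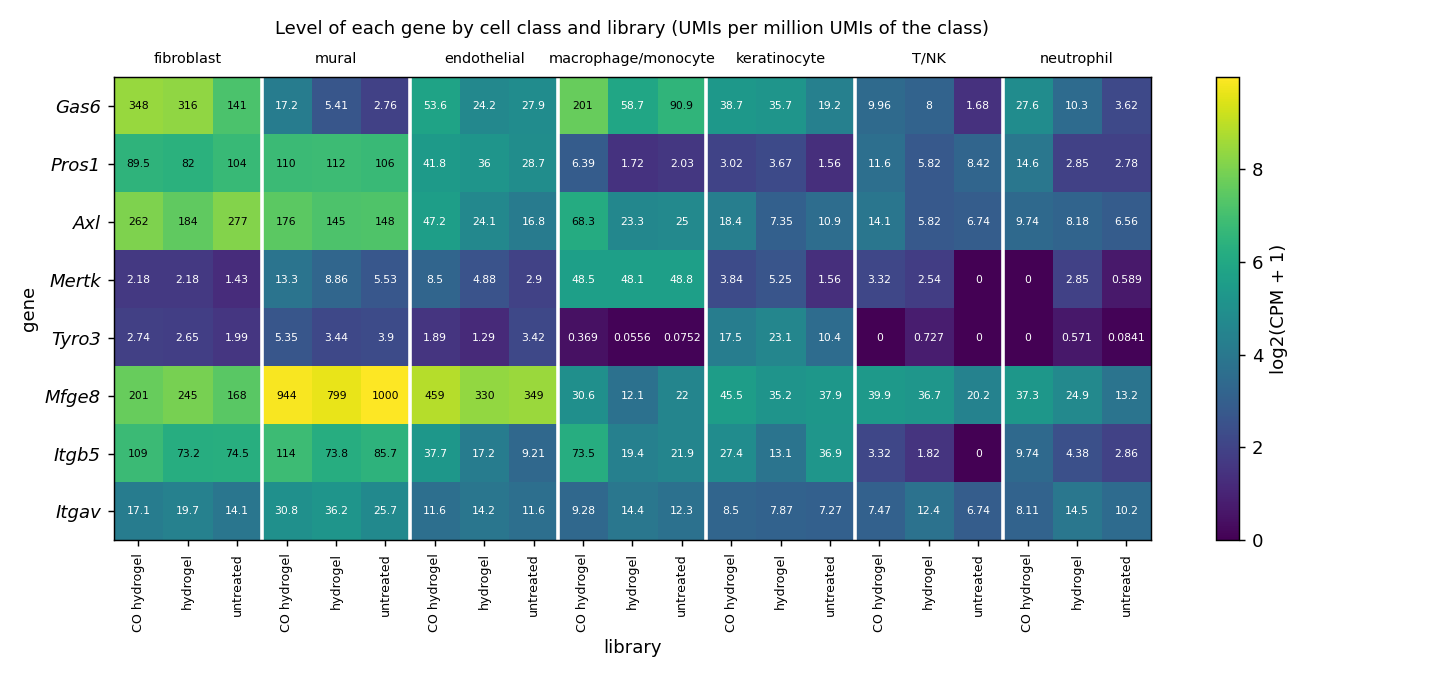
Level of each of the 8 genes (rows) in 7 cell classes of the 3 libraries (columns), as CPM of the class, with colour on a log2(CPM + 1) scale and the CPM written in each cell. Among these classes, Gas6 and Axl peak in fibroblast-like cells, Mfge8 in mural-like cells, Mertk in macrophage or monocyte-like cells and Tyro3 in keratinocyte-like cells.

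Gas6, the ligand of all TAM receptors, had 348 CPM in fibroblast-like cells under the CO hydrogel, 316 CPM under the hydrogel and 141 CPM in the untreated library, from 16288, 7399 and 3042 UMIs. Both hydrogel libraries were high and close together, and the untreated one was low. The log2 ratio was 1.31 for the CO hydrogel over untreated (interval 1.25 to 1.36), 1.17 for the hydrogel over untreated (1.11 to 1.23) and 0.14 for the CO hydrogel over the hydrogel (0.10 to 0.18). Gas6 was the 1 gene of 8 with enough UMIs to be read that passed 2-fold in fibroblast-like cells for the CO hydrogel over untreated. Of 10510 genes, 6.15% were 2-fold higher and 2.7% 2-fold lower there. It was again the 1 gene of 7 for the hydrogel over untreated, where 4.84% of 9829 genes were higher and 2.3% lower. For the CO hydrogel over the hydrogel the count was 0 of 8, where 1.93% of 10644 genes were higher and 1.78% lower. After thinning to 1000 UMIs per cell, Gas6 was seen in 25.3% of fibroblast-like cells under the CO hydrogel, 22.9% under the hydrogel and 14.5% in the untreated library. Without thinning the values were 67.6%, 68.0% and 49.1%. In neutrophil-like cells, which should lack the gene, the thinned share was 2.43%, 0.960% and 0.380%, at median depths of 1309.5, 1807 and 1954.5 UMIs before thinning.

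The fibroblast differences in Gas6 over untreated were smaller once the mix of fibroblast clusters was set equal. The class consisted of 3 clusters, and Gas6 was highest in cluster 2, led by Ccn5, Sfrp4, Cilp, Igf1 and Cxcl14. There it had 523 CPM under the CO hydrogel, 610.1 CPM under the hydrogel and 454 CPM in the untreated library. In cluster 3, led by Gap43, Efemp1 and Dpp4, it had 115, 173 and 44.7 CPM, and in cluster 0, led by Tnn, Prss35 and Col12a1, 67.8, 63.0 and 26.4 CPM. Cluster 2 made up 63.3% of the fibroblast-like cells under the CO hydrogel, 48.9% under the hydrogel and 31.0% in the untreated library, while cluster 3 made up 15.6%, 7.12% and 45.5%. When the cluster levels of a pair of libraries were averaged with the same weights (the mean of each cluster's share of the class's UMIs in that pair), the log2 ratio was 0.37 for the CO hydrogel over untreated and 0.67 for the hydrogel over untreated. For the CO hydrogel over the hydrogel it became -0.22. Within the clusters Gas6 stayed higher than in the untreated library: the log2 ratio over untreated was above 0 in all 3 clusters, with intervals clear of 0, for the CO hydrogel (0.21 to 1.36) and for the hydrogel (0.43 to 1.95). A few cells carried much of the RNA. The top 10% of fibroblast-like cells held 44.6% of the class's Gas6 UMIs under the CO hydrogel, 46.1% under the hydrogel and 58.5% in the untreated library.

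**Figure D2:**
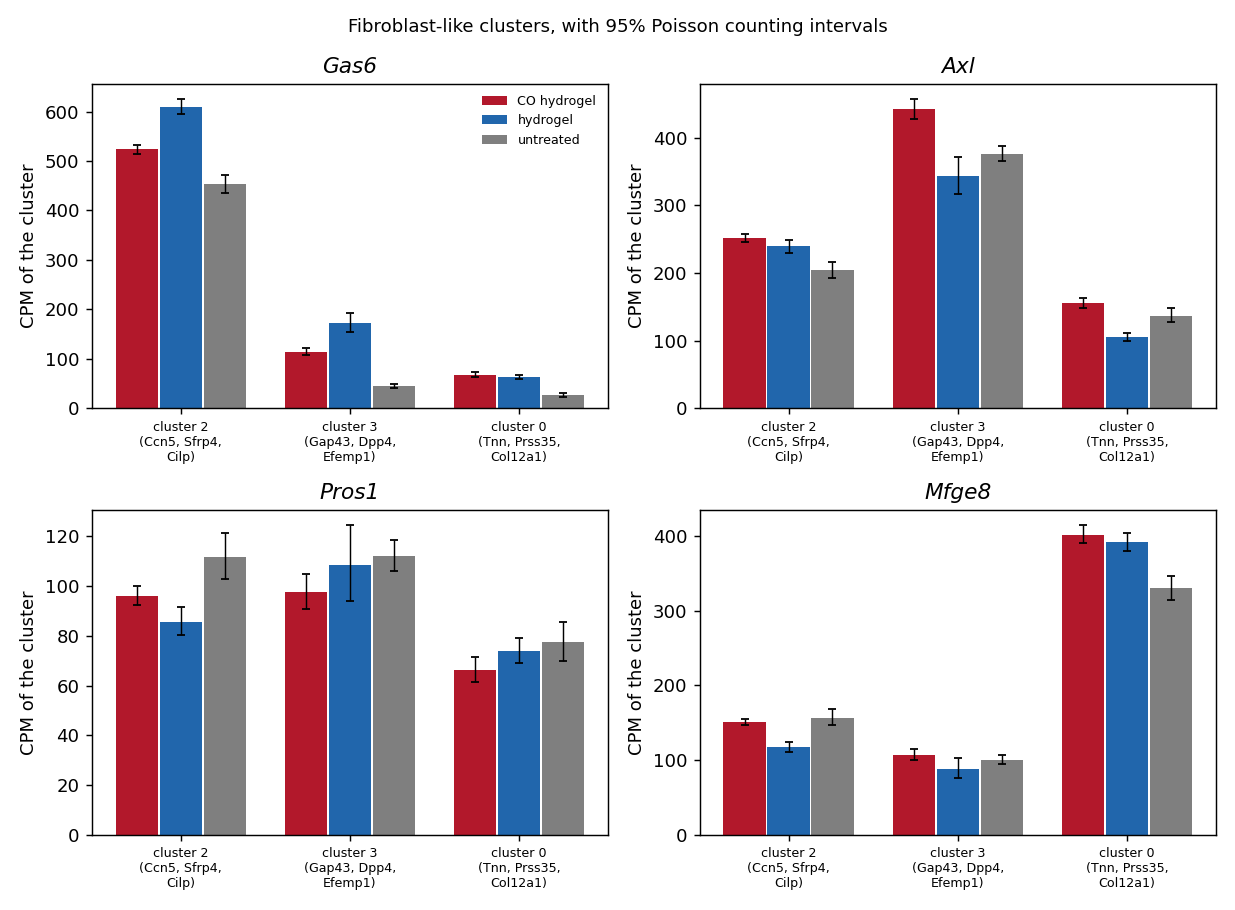
Gas6, Axl, Pros1 and Mfge8 (CPM of the cluster) in the 3 fibroblast-like clusters for the CO hydrogel (red), hydrogel (blue) and untreated (grey) libraries, with 95% Poisson counting intervals. Gas6 is highest in cluster 2, Axl in cluster 3 and Mfge8 in cluster 0 in each of the 3 libraries.

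The fibroblast clusters divided the genes between them. Axl was highest in cluster 3, with 442 CPM under the CO hydrogel, 343 CPM under the hydrogel and 376 CPM in the untreated library, against 251, 239 and 204 CPM in cluster 2 and 156, 106 and 137 CPM in cluster 0. Mfge8 was highest in cluster 0, with 402, 392 and 329.7 CPM, and lowest in cluster 3, with 107, 88.5 and 100.2 CPM. The orders of Gas6 (cluster 2, 3, 0), Axl (3, 2, 0) and Mfge8 (0, 2, 3) were the same in all 3 libraries. So the fibroblasts richest in the ligand Gas6 were not those richest in its receptor Axl.

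Gas6 in macrophage or monocyte-like cells ran differently from Gas6 in fibroblasts. It had 201 CPM under the CO hydrogel, 58.7 CPM under the hydrogel and 90.9 CPM in the untreated library, from 3279, 2113 and 1208 UMIs. The CO hydrogel library stood alone as high, and the hydrogel library was the lowest of the 3. The level was 3.43-fold higher under the CO hydrogel than under the hydrogel (log2 ratio 1.78, interval 1.70 to 1.86) and 2.22-fold higher than in the untreated library (log2 ratio 1.15, interval 1.05 to 1.24). The hydrogel over untreated gave -0.63. Thinned to 1000 UMIs per cell, 16.7% of these cells had a Gas6 UMI under the CO hydrogel, 5.14% under the hydrogel and 8.24% in the untreated library. The 7 fibroblast markers reached 2.08% of their fibroblast level in this class under the CO hydrogel, 0.892% under the hydrogel and 0.730% in the untreated library. Gas6 at that share of its fibroblast level would give 7.26, 2.82 and 1.03 CPM, against the 201, 58.7 and 90.9 CPM measured. The part of carried-over fibroblast RNA in these values was not tested.

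Macrophage Gas6 followed the clusters too. It was highest in cluster 15, led by Cd163, Clec10a, Lyve1 and F13a1, genes of resident-type tissue macrophages, with 351 CPM under the CO hydrogel, 250.7 CPM under the hydrogel and 258 CPM in the untreated library. In cluster 5, led by Trem2, Gpnmb and Apoe, it had 161, 66.0 and 112 CPM, in cluster 10, led by major histocompatibility complex class II genes, 68.9, 28.9 and 64.1 CPM, and in cluster 11, led by Spp1, Pf4 and Arg1, 58.2, 34.8 and 20.004 CPM. Cluster 15 was 39.1% of the class under the CO hydrogel, 7.49% under the hydrogel and 18.3% in the untreated library. Cluster 5 was the largest under the hydrogel, at 41.1%, and cluster 11 the largest in the untreated library, at 34.4%. With the same cluster mix the log2 ratio was 0.85 for the CO hydrogel over the hydrogel and 0.47 over untreated. This mix, here and in all later values of the class, left out cluster 6, which had under 50 cells in the CO hydrogel and untreated libraries. Under the hydrogel, cluster 6 was 14.6% of the class and had 8.53 CPM of Gas6. Part of the change from the class ratio can therefore come from leaving it out. All 4 clusters with at least 50 cells in each library had more Gas6 under the CO hydrogel than under the hydrogel, with intervals clear of 0 and log2 ratios of 0.49 to 1.29.

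Protein S (Pros1) was a stromal gene at a similar level in all 3 libraries. Mural-like cells, the pericytes and smooth muscle of vessels, had 110.1 CPM under the CO hydrogel, 112 CPM under the hydrogel and 106 CPM in the untreated library. Fibroblast-like cells had 89.5, 82.0 and 104 CPM, with the untreated library slightly the highest (log2 ratio -0.21 for the CO hydrogel over untreated and -0.34 for the hydrogel over untreated). The ranges of these top classes did not overlap. Endothelial-like cells followed with 41.8, 36.0 and 28.7 CPM. In macrophage or monocyte-like cells Pros1 had only 104, 62 and 27 UMIs, or 6.39, 1.72 and 2.03 CPM. Its log2 ratio there of 1.89 for the CO hydrogel over the hydrogel rests on that low level, of which carried-over fibroblast RNA at the marker share would give 1.87, 0.731 and 0.758 CPM. Neutrophil-like cells had more Pros1 in every library, with 14.6, 2.85 and 2.78 CPM, and so did T or NK-like cells, with 11.6, 5.82 and 8.42 CPM. The part of free RNA from all classes was not tested.

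Mfge8 was the most abundant gene of the 8 and, among the 7 classes compared, was highest in the cells of vessels. Mural-like cells had 944 CPM under the CO hydrogel, 799 CPM under the hydrogel and 1000.4 CPM in the untreated library, endothelial-like cells 459, 329.7 and 349 CPM, and fibroblast-like cells 201, 245 and 168 CPM. The ranges of these 3 classes did not overlap. Within the mural-like class, cluster 24, led by the smooth muscle genes Myh11 and Tagln, had 1358 CPM under the CO hydrogel and 1304 CPM under the hydrogel, against 888 and 754 CPM in cluster 8, led by the pericyte gene Rgs5. The levels differed little between libraries in the stromal classes: all their log2 ratios lay between -0.32 and 0.54. In macrophage or monocyte-like cells it had 30.6 CPM under the CO hydrogel, 12.1 CPM under the hydrogel and 21.97 CPM in the untreated library. Neutrophil-like cells had 37.3, 24.9 and 13.2 CPM in the same order, and T or NK-like cells 39.9, 36.7 and 20.2 CPM. The macrophage level was thus below both classes under the hydrogels and above both in the untreated library. The part of free RNA in the macrophage values was not tested. Outside the classes compared, cluster 22, led by Ccl22 and given no class name, held 542, 212 and 2518 Mfge8 UMIs from 126, 95 and 73 cells. In the untreated library 8 of these cells held 64.5% of the cluster's Mfge8 UMIs. Clusters without a class name held 16.7% of all Mfge8 UMIs of that library.

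Axl, the TAM receptor that protein S does not bind, did not separate the libraries in fibroblast-like cells as Gas6 did. It had 262 CPM under the CO hydrogel, 184 CPM under the hydrogel and 277 CPM in the untreated library, so the hydrogel library was the low one. The log2 ratio was 0.50 for the CO hydrogel over the hydrogel, -0.09 for the CO hydrogel over untreated and -0.59 for the hydrogel over untreated. With the same cluster mix these became 0.23, 0.25 and -0.06. Mural-like cells came next with 176, 145 and 148 CPM, a range that did not overlap the fibroblast range.

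In macrophage or monocyte-like cells Axl had 68.3 CPM under the CO hydrogel, 23.3 CPM under the hydrogel and 25.0 CPM in the untreated library, from 1112, 840 and 333 UMIs. The CO hydrogel library was high, and the intervals of the other libraries overlapped each other. The level was 2.93-fold higher under the CO hydrogel than under the hydrogel (log2 ratio 1.55, interval 1.42 to 1.68) and 2.73-fold higher than in the untreated library (log2 ratio 1.45, interval 1.27 to 1.63). With a stricter cell filter the last of these was 0.86, under 2-fold. The hydrogel over untreated gave -0.10 (-0.29 to 0.09). Thinned to 1000 UMIs per cell, 6.33% of these cells had an Axl UMI under the CO hydrogel, 2.39% under the hydrogel and 2.08% in the untreated library, against 1.08%, 0.628% and 0.688% of neutrophil-like cells. Fibroblast RNA at the marker share above would bring 5.45, 1.64 and 2.03 CPM of Axl into the class.

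By cluster, Axl was highest in cluster 10 under the CO hydrogel, with 128 CPM, against 51.7 CPM under the hydrogel and 44.6 CPM in the untreated library. In cluster 15 it had 64.1, 94.6 and 30.3 CPM, so that there the hydrogel library was the highest (log2 ratio of the CO hydrogel over the hydrogel -0.56, interval -0.81 to -0.31). In cluster 5 it had 31.8, 15.2 and 30.2 CPM, and in cluster 11 22.5, 4.202 and 5.05 CPM. The CO hydrogel value in cluster 11 rests on 12 UMIs from 84 cells. Axl was thus higher under the CO hydrogel than under the hydrogel in 3 of 4 clusters and lower in the other, and the same cluster mix gave a log2 ratio of 0.58, or 1.49-fold. Over untreated the same mix kept 1.18, or 2.27-fold, with all 4 clusters above 0 and 3 of 4 with intervals clear of 0. Without cluster 10 the class ratio was 1.30 for the CO hydrogel over the hydrogel and 1.47 over untreated, alternatives chosen after seeing the data.

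Mertk, the TAM receptor of tissue macrophages, was level. Macrophage or monocyte-like cells had 48.5 CPM under the CO hydrogel, 48.1 CPM under the hydrogel and 48.8 CPM in the untreated library, from 790, 1733 and 649 UMIs. The log2 ratios were 0.01, -0.01 and -0.02, with intervals no wider than -0.16 to 0.14. No other class came near: mural-like cells were next with 13.3, 8.86 and 5.53 CPM, and fibroblast-like cells had 2.18, 2.18 and 1.43 CPM. The equal class values came from clusters that did not all agree. Cluster 10 had 19.98 CPM under the CO hydrogel, 29.5 CPM under the hydrogel and 39.2 CPM in the untreated library, with a log2 ratio of -0.97 for the CO hydrogel over untreated (interval -1.37 to -0.58). Clusters 5 and 15 had between 55.4 and 70.1 CPM in every library. Outside the macrophages the smooth muscle cluster 24 had 61.3 CPM under the CO hydrogel and 40.4 CPM under the hydrogel, from 50 and 27 UMIs, with too few untreated cells (12) to compare.

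**Figure D3:**
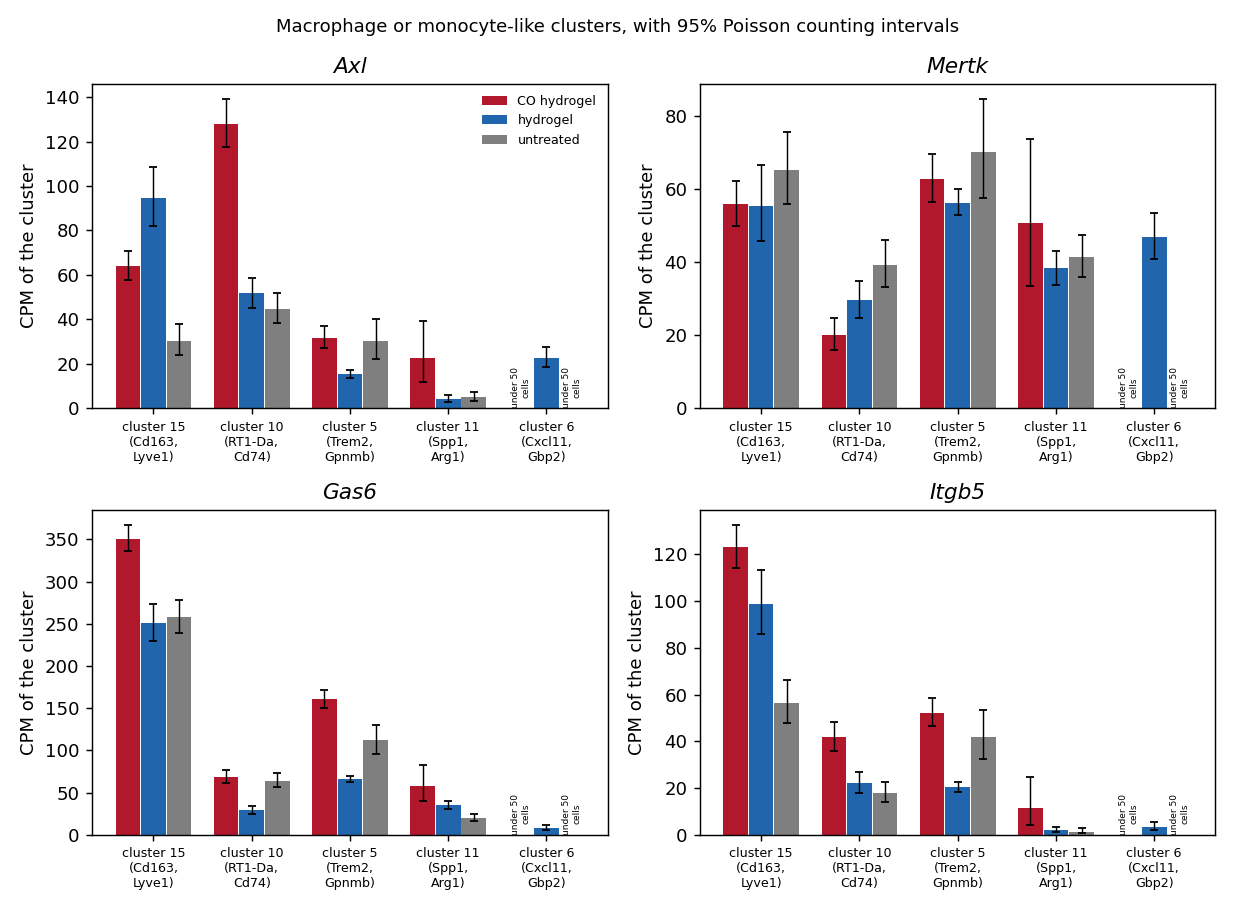
Axl, Mertk, Gas6 and Itgb5 (CPM of the cluster) in the macrophage or monocyte-like clusters for the CO hydrogel (red), hydrogel (blue) and untreated (grey) libraries, with 95% Poisson counting intervals and no bar where a library had under 50 cells. Axl is highest in cluster 10 under the CO hydrogel, at 128 CPM, while Mertk is lowest there, at 19.98 CPM.

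Tyro3 was scarcely seen in macrophages, with 6, 2 and 1 UMIs in the CO hydrogel, hydrogel and untreated libraries, which allows no comparison. Keratinocyte-like cells had the most, 17.5 CPM under the CO hydrogel, 23.1 CPM under the hydrogel and 10.4 CPM in the untreated library, a range above that of every other class. Mural-like cells followed with 5.35, 3.44 and 3.90 CPM and fibroblast-like cells with 2.74, 2.65 and 1.99 CPM.

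Counted together, the TAM receptor RNA of macrophage or monocyte-like cells was mainly Axl under the CO hydrogel and mainly Mertk in the other libraries. Axl made up 58.3% of 1908 receptor UMIs under the CO hydrogel (exact binomial interval 56.0% to 60.5%), 32.6% of 2575 under the hydrogel (30.8% to 34.5%) and 33.9% of 983 in the untreated library (30.9% to 36.9%). Weighted to the same cluster mix over the 3 libraries, the Axl share was 54.6%, 45.2% and 33.5%. It was largest in cluster 10, at 86.5%, 63.6% and 53.3%, and smallest in cluster 11, at 30.8%, 9.90% and 10.9%. Under the CO hydrogel cluster 11 held only 39 receptor UMIs. Its interval there, 17.0% to 47.6%, overlapped that of cluster 5, 29.4% to 37.7%. In cluster 15 the hydrogel library had the largest share, with 53.3% under the CO hydrogel, 62.9% under the hydrogel and 31.7% in the untreated library. In cells thinned to 1000 UMIs the receptors were seldom seen in the same cell: 8 of 2797 cells had both under the CO hydrogel, 2 of 4181 under the hydrogel and 2 of 1444 in the untreated library. At that depth most cells with either receptor show none of it, so the counts say little about co-expression. In fibroblast-like cells Axl made up 98.2%, 97.4% and 98.8% of the receptor UMIs.

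**Figure D4:**
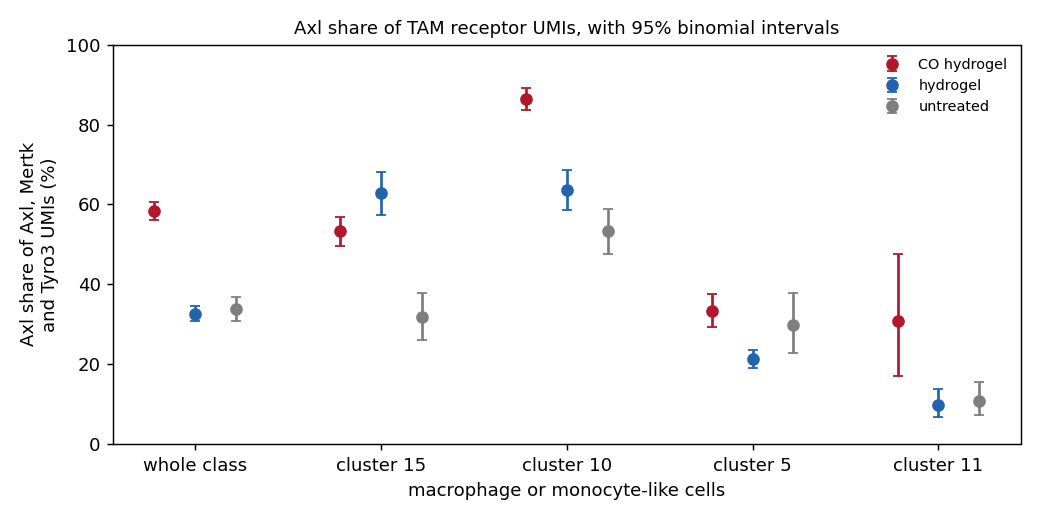
Axl share (percent) of all Axl, Mertk and Tyro3 UMIs in the macrophage or monocyte-like class and in 4 of its clusters, for the CO hydrogel (red), hydrogel (blue) and untreated (grey) libraries, with exact 95% binomial intervals. The CO hydrogel library has the largest share in the whole class (58.3%) and in cluster 10 (86.5%), and the hydrogel library in cluster 15 (62.9%).

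The integrin genes behaved unlike each other. Itgb5, the beta 5 chain, had 73.5 CPM in macrophage or monocyte-like cells under the CO hydrogel, 19.4 CPM under the hydrogel and 21.9 CPM in the untreated library, a 3.79-fold difference from the hydrogel (log2 ratio 1.92, interval 1.79 to 2.06) and a 3.36-fold difference from untreated (log2 ratio 1.75, interval 1.56 to 1.94). The CO hydrogel library was again the high one. Cluster 15 held the most, with 123, 98.9 and 56.5 CPM, and with the same cluster mix the log2 ratios were 0.77 and 0.98. In stroma Itgb5 was also somewhat higher under the CO hydrogel, with 109 CPM against 73.2 and 74.5 CPM in fibroblast-like cells and 114 CPM against 73.8 and 85.7 CPM in mural-like cells for the hydrogel and untreated libraries. Itgav, the alpha v chain, went the other way in macrophages, with 9.28 CPM under the CO hydrogel, 14.4 CPM under the hydrogel and 12.3 CPM in the untreated library (log2 ratio -0.63 for the CO hydrogel over the hydrogel, interval -0.90 to -0.37). That ratio was also below 0 in fibroblast-like (-0.20), mural-like (-0.23) and endothelial-like cells (-0.29). The mural-like and endothelial-like intervals spanned 0. Neutrophil-like cells had a similar level, with 8.11, 14.5 and 10.2 CPM. Mural-like cells had the most Itgav of the 7 classes, with 30.8, 36.2 and 25.7 CPM. The osteoclast-like cluster, led by Acp5, Mmp9 and Ctsk and too small to be among the 7 classes, had 36.0, 56.4 and 47.1 CPM from 106, 129 and 27 cells.

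Across the set, Gas6, Pros1, Axl, Mfge8 and Itgb5 passed 2-fold upward in macrophage or monocyte-like cells for the CO hydrogel over the hydrogel, 5 of the 7 that reached 100 UMIs in the pair. Of 9419 genes, 4.79% were 2-fold higher and 3.08% 2-fold lower. Over untreated the count was 4 of 7 (Gas6, Pros1, Axl and Itgb5), where 4.03% of 8429 genes were higher and 2.23% lower. Pros1 is in both counts with 104 UMIs under the CO hydrogel, 62 under the hydrogel and 27 in the untreated library. It passed the minimum through its high library in both comparisons, so little rests on its being counted. Over untreated it had no value with a marker gate per cell or without cluster 10. With the stricter cell filter the count over untreated was 2, since Gas6 (0.82) and Axl (0.86) were under 2-fold. None of the 8 was 2-fold lower in either comparison among those read. Between the hydrogel and untreated libraries it was 0 of 6, where 3.7% of 9205 genes were higher and 2.13% lower. With the same cluster mix, 2 of 7 remained past 2-fold for the CO hydrogel over the hydrogel (Pros1 and Mfge8) and 2 of 7 for the CO hydrogel over untreated (Pros1 and Axl). The limit on Pros1 holds for these counts too. Mfge8 only just passed with the same mix, at a log2 ratio of 1.005. Its macrophage level under both hydrogels was below that of neutrophil-like and of T or NK-like cells, so little rests on its being counted. The median log2 ratio of all genes was within 0.1 of 0 in these macrophage comparisons; in fibroblast-like cells it was 0.14 for both hydrogels over untreated. The comparisons over untreated share that library, and those of the CO hydrogel share it, so they are not independent of one another. Neutrophil markers in the macrophage or monocyte-like class summed to 187 CPM under the CO hydrogel, 537 CPM under the hydrogel and 1034 CPM in the untreated library, and their part in these differences was not tested.

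**Figure D5:**
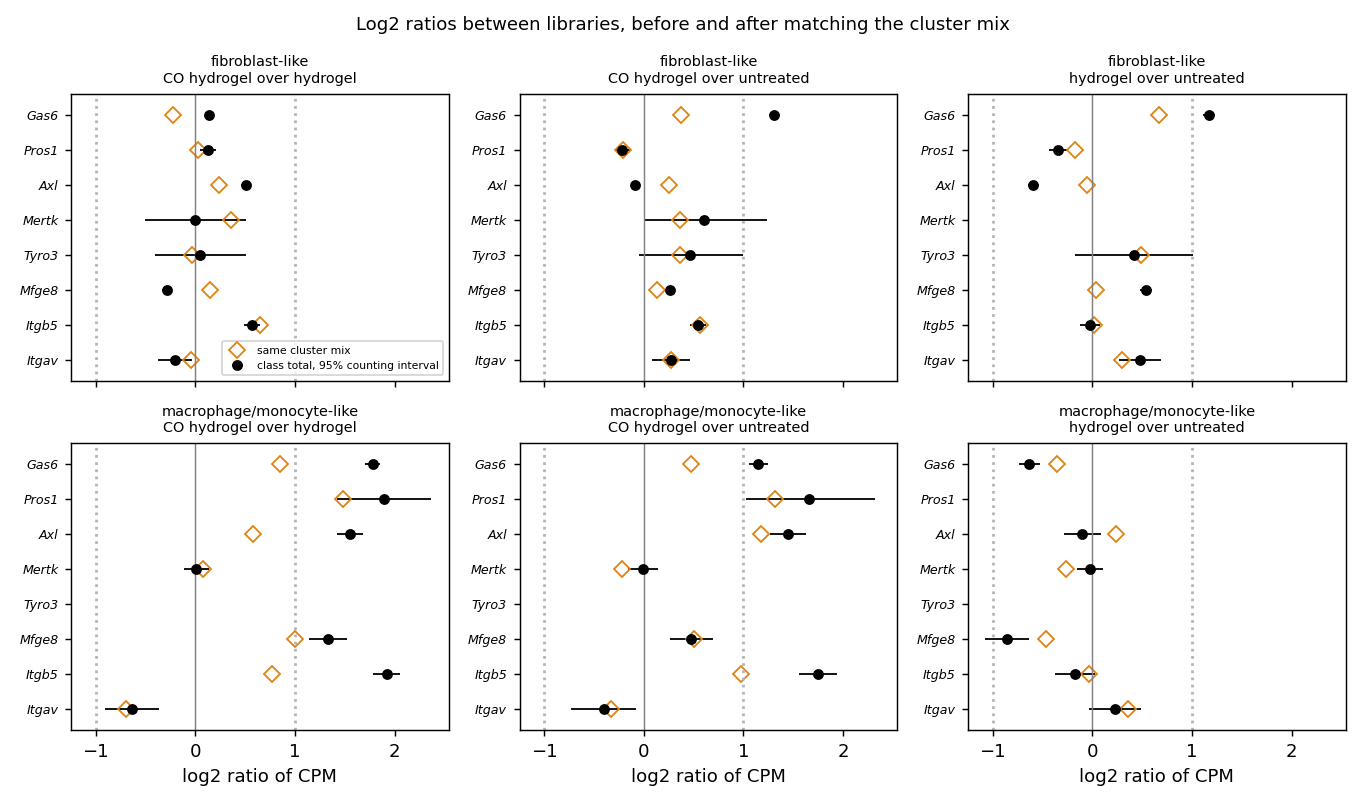
Log2 ratios of CPM (x axis) of the 8 genes with at least 100 UMIs in the pair (rows) for fibroblast-like cells (top) and macrophage or monocyte-like cells (bottom), as class totals with 95% counting intervals (black) and with the same cluster mix in both libraries (open diamonds). Dotted lines mark 2-fold. In macrophage or monocyte-like cells Gas6 moves from 1.78 to 0.85 and Axl from 1.55 to 0.58 for the CO hydrogel over the hydrogel, while Mertk stays near 0.

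Vessel cells also held differences past 2-fold, some as large as in macrophages. For the CO hydrogel over untreated, the endothelial-like log2 ratio was 1.49 for Axl (500 against 64 UMIs) and 2.03 for Itgb5 (399 against 35 UMIs). The macrophage or monocyte-like values were 1.45 and 1.75. Endothelial Axl had 47.2, 24.1 and 16.8 CPM in the CO hydrogel, hydrogel and untreated libraries. In endothelial-like cells 2 of 7 genes passed 2-fold upward for the CO hydrogel over the hydrogel (Gas6 and Itgb5), where 3.19% of 8534 genes were higher and 0.574% lower. Over untreated it was 3 of 7 (Axl, Mertk and Itgb5), where 6.7% of 8058 genes were higher and 0.894% lower. Mertk is in that count with 90 UMIs under the CO hydrogel and 11 in the untreated library, so it passed the minimum through its high library. It was under the minimum without cluster 25, so little rests on it. For the hydrogel over untreated it was 0 of 6, where 2.52% of 7298 genes were higher and 0.507% lower. Endothelial Gas6 had 53.6, 24.2 and 27.9 CPM in the CO hydrogel, hydrogel and untreated libraries. Part of this sat in cluster 25, with 161 cells, all from the CO hydrogel library and led by Krt15, Apln and Acta1, where Gas6 had 191 CPM. Without that cluster, left out after seeing the data, the log2 ratios of the CO hydrogel over the hydrogel were 0.77 for Gas6 and 0.99 for Itgb5, so neither reached 2-fold. Over untreated, Axl (1.16) and Itgb5 (1.89) stayed past 2-fold without it. The fibroblast markers stood at 6.81% of their fibroblast level in endothelial-like cells under the CO hydrogel and 1.66% under the hydrogel, a share that would bring 23.7 and 5.26 CPM of Gas6. In mural-like cells Gas6 was the 1 gene of 7 past 2-fold for the CO hydrogel over the hydrogel, where 0.462% of 8010 genes were higher and 0.749% lower. Over untreated it was 2 of 7 (Gas6 and Mertk), where 2.58% of 7593 genes were higher and 0.882% lower. For the hydrogel over untreated it was 0 of 6, where 2.37% of 7772 genes were higher and 0.566% lower. Mural Gas6 was low throughout, at 17.2 CPM under the CO hydrogel, 5.41 CPM under the hydrogel and 2.76 CPM in the untreated library, from 119, 44 and 17 UMIs. Its log2 ratio of 2.64 for the CO hydrogel over untreated rests on these counts. Mural Mertk had 92 UMIs under the CO hydrogel and 34 in the untreated library. Both genes passed the minimum in these comparisons through the CO hydrogel library, so little rests on their being counted. The fibroblast markers in mural-like cells ran in the same order, at 18907, 15218 and 8912 CPM, and their part in the Gas6 difference was not tested. Mertk was lower in fibroblast-like than in mural-like cells of each library, at 2.18, 2.18 and 1.43 CPM. Cluster 24 held 50 of the 92 mural Mertk UMIs under the CO hydrogel. It was 9.07% of the class there and 1.95% in the untreated library, and its part in the Mertk difference was not tested.

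The wider pathway was read from 13 gene lists, whose counts stand beside the shares of all genes in the macrophage class: 4.79% higher and 3.08% lower for the CO hydrogel over the hydrogel, 4.03% and 2.23% over untreated, and 3.7% and 2.13% for the hydrogel over untreated. With so few genes a list, 1 gene moves a count by more than these shares. In macrophage or monocyte-like cells the list of other bridging and opsonin genes had 3 of 11 measured genes at least 2-fold higher and 3 of 11 at least 2-fold lower under the CO hydrogel than under the hydrogel, with a median log2 ratio of -0.07 against -0.01 over all genes. The higher ones were C1qa, C1qb and C1qc, which encode the complement protein C1q that coats dying cells. C1qa had 4905 CPM under the CO hydrogel, against 1391 CPM under the hydrogel (log2 ratio 1.82). These genes also served to name the class. The lower ones were Thbs1 (thrombospondin 1), Edil3 and C3. Thbs1 had 22.8 CPM under the CO hydrogel, 83.7 CPM under the hydrogel and 574 CPM in the untreated library, with a log2 ratio of -4.65 for the CO hydrogel over untreated, and in the pair of hydrogels another class held more than 5 times its macrophage level. For the CO hydrogel over untreated 0 of 11 genes of this list were 2-fold higher and 3 of 11 lower, and for the hydrogel over untreated 0 of 11 and 6 of 11, with a median of -1.03.

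Among other phosphatidylserine receptors 2 of 6 were at least 2-fold higher for the CO hydrogel over the hydrogel, with a median of -0.16. Stab1 (stabilin 1) had 22.5 CPM under the CO hydrogel, against 7.11 CPM under the hydrogel (log2 ratio 1.66), and Cd300lb had 48.0 against 23.9 CPM (log2 ratio 1.01). Of other engulfment receptors 1 of 6 was higher, the mannose receptor Mrc1 with 1158 against 358 CPM, also a naming marker, and 1 of 6 was lower, the oxidised lipoprotein receptor Olr1 with 102 against 208 CPM and more than 5 times higher in another class. The lists for phagosome maturation, phosphatidylserine exposure and gamma-carboxylation, the vitamin K-dependent step that Gas6 and protein S need, had 0 of 11, 0 of 6 and 0 of 4 genes past 2-fold. In the engulfment machinery 2 of 9 were higher, Gulp1 and Ptk2, both more than 5 times higher in another class, and the median was 0.06. Of the do-not-eat-me list 2 of 6 were lower: Cd200 with 4.91 CPM under the CO hydrogel against 38.3 CPM under the hydrogel and more than 5 times that in another class, and Siglec10 with 31.9 against 77.7 CPM. Of the other lists, the cholesterol and lipid list had 1 of 11 higher (Pparg), the find-me list 1 of 6 higher (Sphk1), the other vitamin K-dependent genes 0 of 5, and the alpha v partners 1 of 2 lower (Itgb8, which passed the minimum through the hydrogel library, with 3 UMIs under the CO hydrogel and 149 under the hydrogel).

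In fibroblast-like cells 6.15% of all genes were at least 2-fold higher and 2.7% lower for the CO hydrogel over untreated, 4.84% and 2.3% for the hydrogel over untreated, and 1.93% and 1.78% for the CO hydrogel over the hydrogel. Between the hydrogels no list gene was 2-fold higher in the 12 lists given here, and 6 were lower: C3 (1 of 10 bridging and opsonin genes, with 20.01 CPM under the CO hydrogel against 48.7 CPM under the hydrogel), Trem2 (1 of 1 other phosphatidylserine receptors), Cd14 and Olr1 (2 of 7 other engulfment receptors), Siglec10 (1 of 5 do-not-eat-me genes) and Plscr1 (1 of 6 phosphatidylserine exposure genes). All of these but C3 stood more than 5 times higher in another class. Over untreated 3 of 10 bridging and opsonin genes were higher under the CO hydrogel, C1qa, C1qb and C1qc, each more than 5 times higher in another class, and 1 of 10, C3, was lower. In the cholesterol and lipid list 3 of 10 were 2-fold higher under the CO hydrogel than in the untreated library, with a median log2 ratio of 0.64 against 0.14 over all genes. They were Apoe with 4625 against 1679 CPM, the cholesterol exporter Abca1 with 75.3 against 36.6 CPM, and Pparg with 99 against 3 UMIs, or 2.12 against 0.139 CPM. Pparg passed the minimum through its high library, and Apoe, Abca1 and Pparg all stood more than 5 times higher in another class. The engulfment receptor Megf10 had 7.89 CPM under the CO hydrogel, 5.99 CPM under the hydrogel and 1.89 CPM in the untreated library. Dock1, which activates Rac during engulfment, had 46.2 CPM under the CO hydrogel, against 21.8 CPM in the untreated library (log2 ratio 1.08), and Panx1, a channel for find-me nucleotides, had 31.7 against 12.9 CPM (log2 ratio 1.30). Fn1 (fibronectin) had 3196 CPM under the CO hydrogel, 1934 CPM under the hydrogel and 5859 CPM in the untreated library. Of the other vitamin K-dependent genes, Mgp had 1562 CPM under the CO hydrogel, against 3392 CPM in the untreated library (log2 ratio -1.12).

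The genes whose levels ran most like each member were found by Pearson's r of log2(CPM + 10) over 21 class-by-library profiles, among 9904 other genes. The profiles of 1 library share its depth and those of 1 class share its cells, so r is a description. Gas6 ran most like Igf1 (r = 0.92) and Sulf2 (0.91), Pros1 like C1qtnf2 and Sulf1 (both 0.98), Axl like Cpq (0.98) and Map1a (0.97), and Mertk like Gdf15 (0.96) and Cndp1 (0.95). Tyro3 ran like Pou3f1 and Pard6g (both 0.97), Mfge8 like Adamts7 and Peli2 (both 0.98), Itgb5 like St6galnac6 (0.94), and Itgav like Cp (0.92) and Pde1a (0.91). Within the set the closest pairs were Axl with Itgb5 (0.91) and Pros1 with Mfge8 (0.90), while Axl and Mertk had r = 0.13.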

How the data were processed

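Skin wound cells of 3 libraries, 1 per group, were profiled by 10x Genomics 3' RNA sequencing. The authors deposited raw UMI counts per gene and barcode, made with Cell Ranger 6.0.1 per the file headers. Build rn6 and the tools Seurat 4.2.0, DESeq 1.38.0 and a later Cell Ranger, 7.0.0, come from the submitters' processing notes, so which version made the counts is unsure. The counts are not corrected for free RNA, and a 3' assay counts only RNA ends. Library totals were 109718517 UMIs for the CO hydrogel, 109148721 for the hydrogel and 78233883 for the untreated library.

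Cells with at least 500 UMIs, at least 300 genes and at most 20% mitochondrial UMIs were kept. Scrublet scores were computed in scanpy 1.11.5, and the highest were removed as doublets at 0.8% per 1000 barcodes (11.6%, 10.7% and 8.89% of barcodes in the CO hydrogel, hydrogel and untreated libraries), since Scrublet's own threshold called 487, 435 and 0. The 3 libraries were clustered together without the 8 genes (2000 variable genes, 30 components, 20 neighbours, Leiden resolution 1, igraph 0.11.9). Clusters were named from fixed marker lists (score of 0.2 or more, 3 or more markers each present in 20% of cells, and no other class ahead among the 10 top genes), and 3 of 27 clusters stayed unnamed. UMIs were summed per class or cluster and library. Log2 ratios carry exact conditional binomial intervals and were compared between libraries where both together held at least 100 UMIs; called means at least 2-fold. The ratios and intervals were tested on simulated counts. These were independent Poisson draws without spread between cells or rats, so that test says nothing about such spread. Shares of cells used cells thinned to 1000 UMIs. The members, marker lists and gene lists were chosen with earlier results of these data known. All 8 members were described. From each list, in fibroblast-like and macrophage or monocyte-like cells and for each pair, at most the 3 genes farthest above and the 3 farthest below 0 were eligible to be named, among those 2-fold apart with at least 100 UMIs, along with the 5 genes most like each member. Some genes that this rule takes, and the list of receptor shedding and TAM target genes, are not reported here. Alternatives covered the cell filter, doublets, resolution, separate clustering, TMM scaling (edgeR 4.0.16), per-cell means, a common cluster mix, a marker gate per cell and the thinning depth.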

Additional observations from a re-analysis of the deposited data

Results flagged for a closer look

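In 6 pairs of values a gene ran in opposite directions in the macrophage or monocyte-like and the fibroblast-like class under the same comparison, each with a counting interval clear of 0; the difference itself was not tested, since each group is 1 library. For the CO hydrogel over the hydrogel, Mfge8 had a log2 ratio of 1.33 in macrophage or monocyte-like cells and -0.28 in fibroblast-like cells. For the CO hydrogel over untreated, Pros1 had 1.65 and -0.21, Axl had 1.45 and -0.09, and Itgav had -0.40 and 0.27 in these classes. The macrophage value of Pros1 passed the minimum through the CO hydrogel library, with 104 UMIs against 27 in the untreated library. Macrophage Mfge8 was low, at 30.6 CPM under the CO hydrogel and 12.1 CPM under the hydrogel. Neutrophil-like cells had more in those libraries, 37.3 and 24.9 CPM, and the part of free RNA was not tested. For the hydrogel over untreated, Gas6 had -0.63 and 1.17, and Mfge8 had -0.86 and 0.54. Of these pairs, 4 did not keep opposite directions under every alternative. The fibroblast-like value of Mfge8 (CO hydrogel over the hydrogel) was 0.15 with the same cluster mix and 0.09 with a marker gate per cell, and that of Axl (CO hydrogel over untreated) was 0.25 with the same mix, 0.19 with the gate and 0.03 as a mean of per-cell CPM. With the gate the fibroblast-like value was 0.06 for Pros1 (CO hydrogel over untreated) and -0.12 for Mfge8 (hydrogel over untreated), and without cluster 10 the macrophage value of Mfge8 (hydrogel over untreated) was 0.01. Itgav (CO hydrogel over untreated) and Gas6 (hydrogel over untreated) kept their signs in both classes under the alternatives run.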

How the results depend on the processing

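Log2 ratios of 63 gene, class and pair combinations were recomputed under 401 alternatives: 274 stayed within the spread set by counting, 127 moved beyond it, and 350 kept their sign. This tally includes the endothelial-like ratios of the hydrogel over untreated without cluster 25. That cluster had no cells in either library, so those ratios could not move. With 1 library per group, leaving out a replicate was not possible. No paired analysis was possible because each group has 1 library. The cause of each move was not tested. The lists of values below run in the order CO hydrogel over the hydrogel, CO hydrogel over untreated, hydrogel over untreated, unless named.

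Gas6 in fibroblast-like cells had a log2 ratio of 0.66, 1.67 and 1.01 with a marker gate per cell and -0.22, 0.37 and 0.67 with the same cluster mix. Over untreated, for the CO hydrogel and then the hydrogel, it was 1.09 and 0.95 with each library clustered by itself, 1.16 and 1.01 with TMM factors, and 0.98 and 0.83 as a mean of per-cell CPM. The count of genes 2-fold apart in these cells was 1 for the CO hydrogel over the hydrogel with the gate. For the CO hydrogel over untreated it was 2 with separate clustering, 0 with per-cell means and 0 with the same mix. For the hydrogel over untreated it was 2 with the gate, 0 with per-cell means and 0 with the same mix.

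Axl in macrophage or monocyte-like cells had 1.22, 0.86 and -0.36 with a stricter cell filter and 0.58, 1.18 and 0.24 with the same mix. It had 1.21 and 1.16 for the first 2 pairs with separate clustering. The CO hydrogel over the hydrogel gave 1.27 with the gate and 1.30 without cluster 10, and the CO hydrogel over untreated gave 1.68 with the unnamed cluster 13. The hydrogel over untreated gave 0.16 with no doublets removed, 0.17 with the gate, 0.15 as per-cell means, 0.17 without cluster 10 and 0.14 with cluster 13. Mertk there gave -0.27 (gate) and 0.20 (without cluster 10) for the CO hydrogel over the hydrogel. The CO hydrogel over untreated gave 0.17 (no doublets removed), -0.22 (same mix), 0.15 (without cluster 10) and 0.27 (with cluster 13). The hydrogel over untreated gave 0.17 (no doublets removed), 0.13 (separate clustering), 0.23 (gate), -0.27 (same mix) and 0.27 (with cluster 13). The count in these cells was 2 with the same mix for the CO hydrogel over the hydrogel, 2 with the stricter filter and 2 with the same mix over untreated, and 1 for the hydrogel over untreated with the stricter filter, with no doublets removed and with the gate. With the same mix Axl made up 54.6% of the receptor UMIs under the CO hydrogel and 45.2% under the hydrogel.

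The alternatives on clusters 10, 13 and 25 and on fibroblast marker UMIs were chosen after seeing the data. Macrophage or monocyte-like cells with no fibroblast marker UMI numbered 29 under the CO hydrogel, 104 under the hydrogel and 69 in the untreated library, too few UMIs for a ratio of any of the 8 genes. Tyro3 in macrophages and the small classes are limited by depth. Shares of cells with a UMI moved with the thinning depth.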
